A study of Chrysanthemum x morifolium with 6 samples.

Results

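The clusters described here are the plant BTB/POZ proteins that the deposited regulator table files under the family name TRAF. A cluster is an assembled transcript group from a transcriptome without a reference genome. A cluster was taken when its family was TRAF and its best Swiss-Prot match came from a flowering plant, which held for 108 of 158 TRAF clusters and for 108 of 10744 clusters in the regulator table. No expression value entered this rule, though earlier results of these data were known when the clusters were chosen. The best match was an Arabidopsis thaliana protein in every case, and the 108 clusters share 28 protein names, so several clusters often stand for 1 protein. By name, 74 were BTB/POZ domain proteins, 15 were regulatory proteins of the NPR group and 5 were BTB/POZ and MATH proteins (BPM). The other 14 were 9 clusters matched to ARIA, 4 to BPA1 (binding partner of ACD11 1) and 1 to the UV-B receptor UVR8, whose closest protein in the wider database came from the brown alga Ectocarpus. A working label for these clusters also named SINA proteins, and an ETO1 type was looked for, but 0 of the 108 clusters carried either name. The deposited domain annotation listed a BTB/POZ domain in 101 of the 108, ankyrin repeats in 15, armadillo repeats in 7 and a MATH domain in 0. The 15 with ankyrin repeats are not the 15 NPR clusters, as clusters of At2g04740 listed them and the NPR5 cluster did not. The BPM clusters are named by their match alone. All 108 are called BTB/POZ clusters below.

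RNA came from roots of the chrysanthemum cultivar jinba (Chrysanthemum x morifolium), grown for 1 month in a greenhouse. The salt group was given salt water at 100 mM and the control group was given purified water, and roots were taken 24 h later. Watering was also controlled for 2 days, and it is not stated clearly whether this applied to both groups. Each group has 3 libraries that the labels call biological replicates, with no statement of how many plants went into each, so p-values measure the spread between these libraries. The cultivar, age, light and temperature were common to both groups, and the salt itself is not named in the labels.

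The BTB/POZ domain lets proteins pair with each other and, in many plant members, bind cullin-3, the scaffold of a ubiquitin ligase that marks chosen proteins for breakdown. The second domain of each member decides what is recruited. Ankyrin repeats mark the NPR proteins, which perceive or relay the defence hormone salicylic acid, a MATH domain marks the BPM adaptors of several transcription factors, and armadillo repeats mark ARIA, a partner of the abscisic acid response factor ABF2 in Arabidopsis.

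Depth was 12.8 to 16.1 M fragments in salt libraries (M for mega) and 15.9 to 20.1 M in control libraries. Levels are given as CPM, the deposited counts scaled to an effective library size and to 1 M, and as FPKM (fragments per kilobase, scaled by the authors to plain depth without that effective size) where different proteins are compared. Clusters best matched to organisms outside the land plants held 7.78%, 11.5% and 11.3% of the regulator counts in the salt libraries, against 4.01%, 3.99% and 3.97% in the control libraries. Because that share moved with treatment, every test was run with libraries scaled over all clusters and again with libraries scaled over flowering-plant clusters alone, a change that moved the median log2 fold change of all regulators by 0.53. CPM and fold changes are those of the first scaling unless stated, and where no second value follows a called protein or cluster, its call was the same with both. Its part in the results was not tested otherwise. Root markers were present, with 31 clusters of SHORT-ROOT, SCARECROW, PLETHORA, WOX5, root hair and root cap factors summing to 50.4 to 51.7 CPM in salt and 81.8 to 86.8 CPM in control. SHORT-ROOT had 24.4 to 27.4 CPM of this in salt and 50.0 to 51.3 CPM in control. PLETHORA went the other way, with 6.67 to 9.18 CPM in salt and 2.46 to 3.28 CPM in control. The median log2 fold change of tested root-marker clusters was -0.78, or -0.22 with flowering-plant scaling. The 9 clusters of shoot and flower markers summed to 2.02 to 2.20 CPM in salt and 4.41 to 5.51 CPM in control, and no cluster was named LEAFY. Root hair factors (0.355 to 0.975 CPM in salt) and root cap factors (0.488 to 1.28 CPM in salt) did not stand above these. In whole roots, fewer cells of a type and less RNA per cell cannot be told apart.

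Some BTB/POZ proteins were lower in salt roots than in control roots with both scalings, At2g30600 and ARIA among them, but the summed level of the group was not. The 108 clusters summed to 649, 633 and 582 CPM in the salt libraries, against 881, 897 and 866 CPM in the control libraries, without overlap. Scaled over flowering-plant clusters they summed to 731, 770 and 696 CPM in salt and 745, 735 and 763 CPM in control, which overlap. Without the clusters matched to At2g30600 the sum was 592 ± 30.9 CPM in salt and 721 ± 13.3 CPM in control (SD, n = 3 each), and this difference turned round with flowering-plant scaling, to 698 ± 35.1 CPM in salt and 611 ± 10.8 CPM in control. The filter on low counts passed 69 of the 108 clusters for testing. With edgeR's quasi-likelihood test and a Benjamini-Hochberg adjusted p under 0.05 over all tested regulators, 5 of the 69 were higher in salt, 25 were lower and 39 were not called. The shares were 7.25% higher and 36.2% lower, against 23.9% and 29.3% of all 5284 tested regulator clusters and 12.4% and 35.5% of the 3760 other flowering-plant clusters tested. The lower share of the BTB/POZ clusters thus lay close to that of other plant clusters, and the median log2 fold change was -0.65 for the BTB/POZ clusters and -0.62 for the other plant clusters.

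Scaled over flowering-plant clusters, 15 of 69 BTB/POZ clusters were higher and 18 lower, which is 21.7% and 26.1%, against 21.8% and 20.3% of other flowering-plant clusters and 33.3% and 16.6% of all regulators. The median log2 fold change of the BTB/POZ clusters was then -0.19, against -0.13 for other flowering-plant clusters. The 5 higher clusters kept their call under both scalings, as did 18 of the 25 lower ones. The other 7 lower clusters were then not called, and 10 uncalled clusters became higher. None passed from lower to higher. Salt values lay wholly above control values in 11 tested clusters and wholly below in 31, where the shares over all tested regulators were 27.6% and 39.6%. Without control 2 the counts fell to 2 higher and 18 lower, and without salt 2 or control 3 the higher count was 3.

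**Figure D1:**
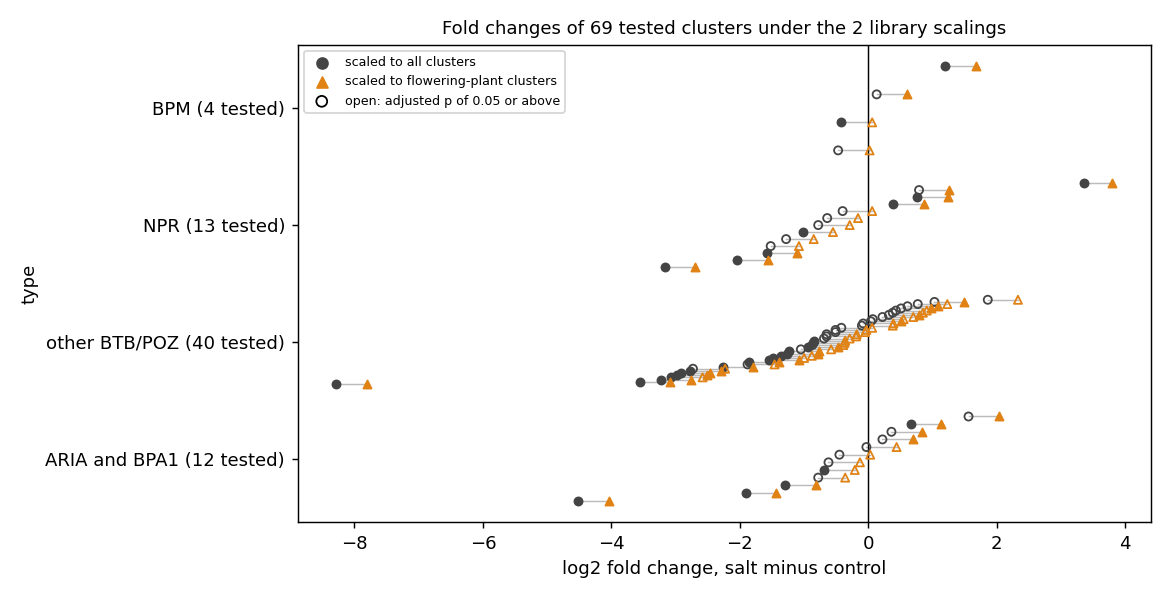
Log2 fold change (salt minus control, x axis) of the 69 tested BTB/POZ clusters, grouped by type on the y axis, with circles for the scaling over all clusters, triangles for the scaling over flowering-plant clusters and grey lines joining the values of 1 cluster. Filled symbols passed an adjusted p under 0.05, and in the other BTB/POZ row 0 of 40 circles and 5 of 40 triangles are filled to the right of 0.

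The clusters were also summed by protein name, because reads can be shared among near-identical clusters and their split may differ between libraries. Of the 28 proteins, 20 could be tested, and 3 were higher and 10 lower in salt. That is 15% and 50%, where 36.1% and 38.5% of all 2251 tested units of the regulator table were called. Those units include proteins of other organisms, and clusters without a Swiss-Prot match were kept single. Clusters matched to other organisms were mostly higher, 579 of 858 tested. The share for flowering-plant proteins alone was not computed. BT4, NPR3 and BPA1 were higher. BPM4, At1g21780, At1g55760, At2g04740, At2g30600, At5g03250, NPY5, NPR1, NPR5 and ARIA were lower. Scaled over flowering-plant clusters, 8 were higher (40%, against 46.7% of all) and 7 lower (35%, against 23.9%). The same 3 higher proteins stayed higher, and At1g55760, At2g04740 and BPM4 lost the lower call.

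**Figure D2:**
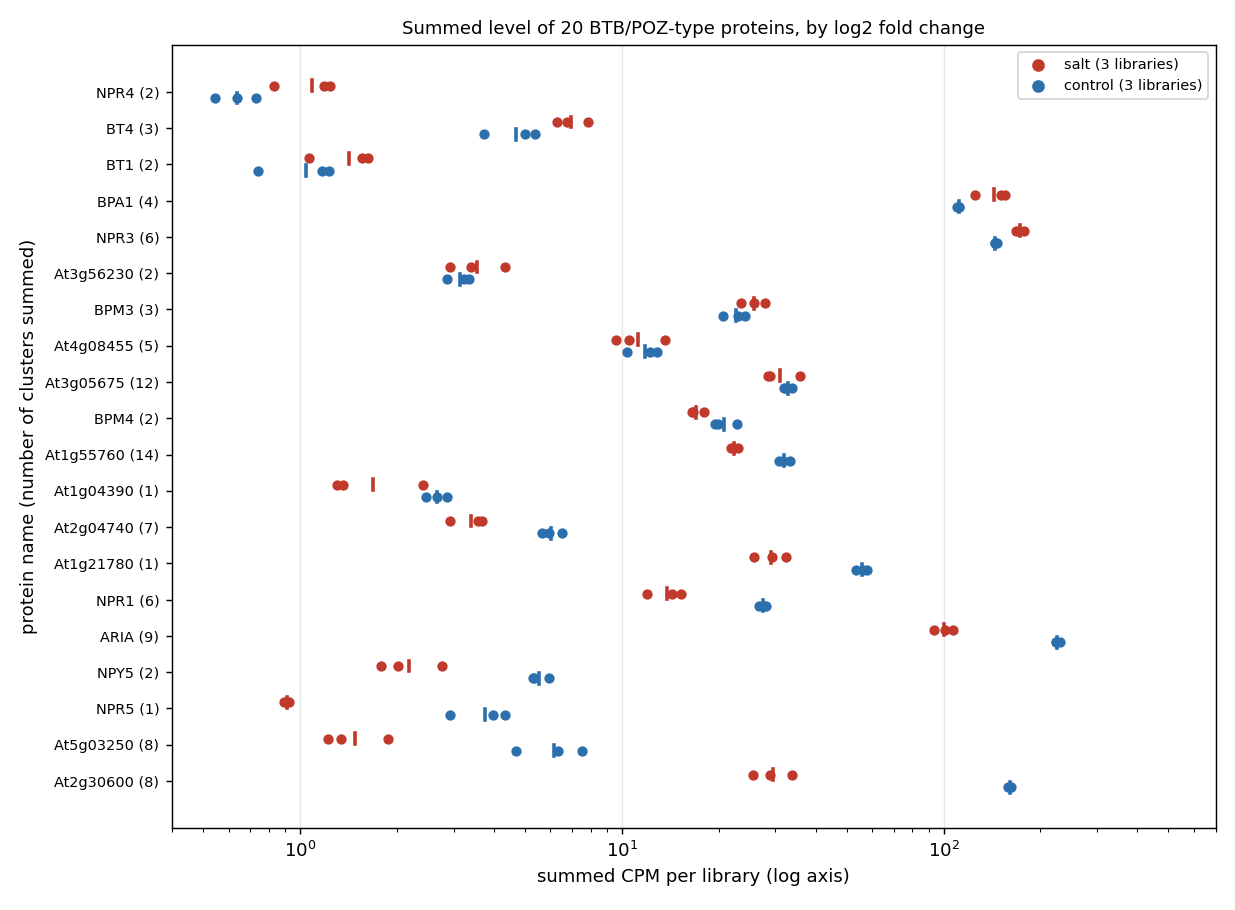
Summed CPM of the 20 tested proteins in each library (log x axis), ordered from the largest log2 fold change at the top to the smallest at the bottom, with salt libraries in red above control libraries in blue and a bar at each group mean. Salt points for At2g30600 lie between 25.6 and 33.9 CPM and control points between 159 and 162 CPM, while NPR3 salt points lie at 168 to 178 CPM, just above control points at 144 to 147 CPM.

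Per length, the order of the proteins differed between salt and control roots. In salt roots BPA1 had the highest summed level, with 85.1, 82.5 and 69 FPKM, followed by NPR3 with 70.4, 69.1 and 69.6 FPKM, and these ranges overlap. ARIA with 42.8, 50.2 and 43.8 FPKM came next. BPM3 with 41.2, 37.6 and 35.4 FPKM and At1g55760 with 48.4, 34.4 and 30.9 FPKM had ranges that overlap. Of the At1g55760 value in salt 1, 16.27 FPKM came from Cluster-71316.240707, of 231 bases, which had 3 counts there. In control roots At2g30600 came first with 202, 204 and 216 FPKM, which was 28.6% of the summed FPKM of all BTB/POZ clusters there. ARIA followed in control roots with 99.2, 97.5 and 100 FPKM, and NPR3 and BPA1 both averaged 66.9 FPKM. In salt roots At2g30600 was at 31.4, 26.3 and 27.8 FPKM. The protein with the highest summed FPKM in control roots thus lay under BPA1, NPR3, ARIA and BPM3 in each salt library. Short clusters weigh heavily in such sums. Cluster-71316.146607 of At2g30600 (578 bases) averaged 50.8 FPKM in control, with 10.2% of the protein's CPM there. By CPM, ARIA stood above At2g30600 in control roots (means 225 and 161), and At2g30600 above BPM3 in salt roots (29.5 and 25.7). If clusters are pieces of 1 transcript, summed FPKM counts it more than once, which was not tested.

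The BTB/POZ domain proteins other than NPR and BPM included At2g30600, the protein with the largest decrease among the 20 tested by edgeR. Of 74 clusters 40 were tested, and 16 were lower and 0 higher by edgeR at the adjusted threshold, where 2 were higher at an unadjusted p under 0.05, 6 by DESeq2, 3 by limma on FPKM and 5 by edgeR with flowering-plant scaling. With that scaling 12 were lower. The lower share was 40%, or 30% with flowering-plant scaling, where other flowering-plant clusters had 35.5% and 20.3%. Their sum was 159, 145 and 134 CPM in salt and 324, 330 and 317 CPM in control, without overlap under either scaling. Without the At2g30600 clusters, 8 of 32 were lower, and 4 of 32 with flowering-plant scaling. Their median log2 fold change was -0.58, or -0.12 with flowering-plant scaling, where other flowering-plant clusters had -0.62 and -0.13. With flowering-plant scaling the summed CPM of this type overlapped between salt and control once the At2g30600 clusters were left out.

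At2g30600 is a BTB/POZ protein known in Swiss-Prot only by its Arabidopsis locus number. Its 8 clusters summed to 33.9, 28.9 and 25.6 CPM in salt libraries, against 161, 162 and 159 CPM in control libraries. Every salt library lay far below every control library. The difference was 5.45-fold (log2 fold change -2.44, SE 0.09, edgeR adjusted p 1.8e-07), and -1.97 with flowering-plant scaling (edgeR adjusted p 4.4e-07). It stayed between -2.56 and -2.43 when any 1 library was left out.

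All 8 clusters passed the test one by one, under both scalings and without each library in turn. The most abundant, Cluster-71316.174072 (2399 bases), had 15.4, 14.5 and 11.8 CPM in salt and 71.2, 51.8 and 78.4 CPM in control (log2 fold change -2.27, SE 0.18, edgeR adjusted p 2.6e-04). Cluster-71316.168131, which is 1 base shorter at 2398 bases, had 0.00142, 0.279 and 0.0211 CPM in salt and 28.5, 48.6 and 18.5 CPM in control. That cluster is nearly empty in salt and strongly filled in control. Its fitted log2 fold change of -8.28 (edgeR adjusted p 4.1e-04, SE 0.77) depends on the prior count, because the 3 salt libraries held 0.02, 4.30 and 0.26 counts.

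Shorter fragments matched to the same protein moved the same way. Cluster-71316.146607 (578 bases) had 1.12, 1.49 and 1.54 CPM in salt and 14.9, 15.8 and 18.5 CPM in control (log2 fold change -3.55, SE 0.18, edgeR adjusted p 7.9e-05). Cluster-71316.110533, also of 578 bases, had 0.852, 1.23 and 1.22 CPM in salt and 6.89, 7.70 and 8.14 CPM in control (log2 fold change -2.78, SE 0.23, edgeR adjusted p 2.9e-04). The remaining 4 had log2 fold changes between -3.23 and -1.24. Cluster-71316.174073 (1637 bases) fell least and made up 39.5% of the protein's CPM in salt, against 17.2% in control. Several of the clusters are of equal or near-equal length, and without sequences it was not tested whether they are alleles, copies or pieces of 1 transcript.

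**Figure D3:**
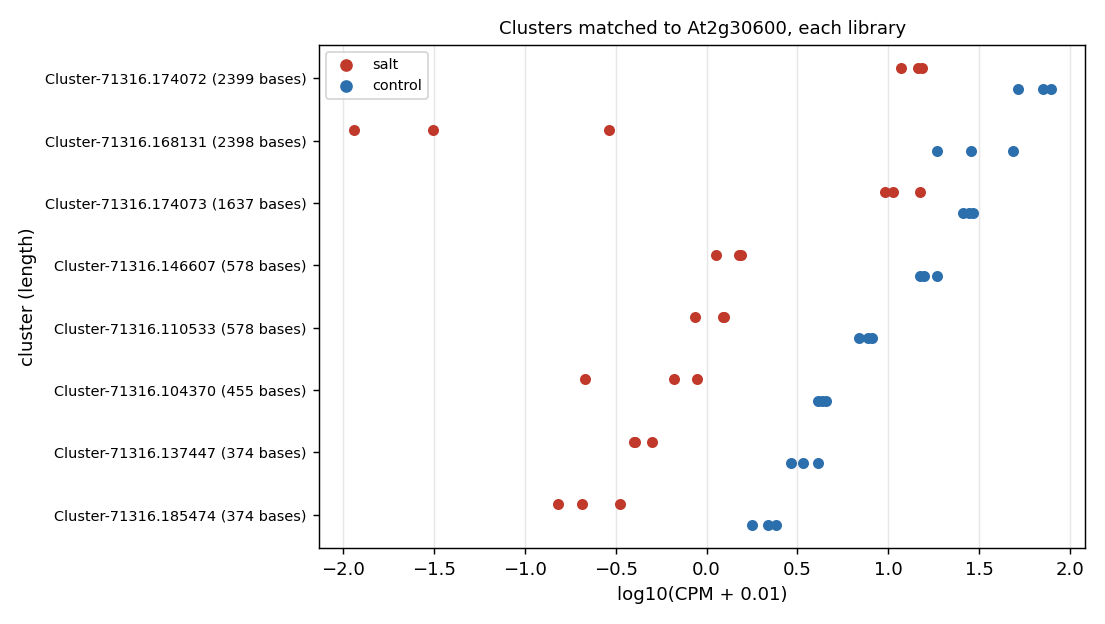
Level of each of the 8 clusters matched to At2g30600 in each library, as log10(CPM + 0.01) on the x axis, ordered by control level, with salt in red above control in blue. No cluster has a salt point at or above its lowest control point, and Cluster-71316.168131 has salt values of 0.00142 to 0.279 CPM against control values of 18.5 to 48.6 CPM.

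At1g21780, another protein known by its locus, is represented by 1 cluster, Cluster-71316.166074, the most abundant of this type over all 6 libraries. It had 32.3, 29.3 and 25.8 CPM in salt, against 58.0, 56.3 and 53.5 CPM in control. The groups did not overlap, and the log2 fold change was -0.94 (edgeR adjusted p 5.9e-04, SE 0.10), or -0.47 with flowering-plant scaling (edgeR adjusted p 0.0038). At1g55760 had 14 clusters, the most of any name, and their sum was 22.3, 22.9 and 21.8 CPM in salt, against 30.7, 33.4 and 31.7 CPM in control. That lower value (log2 fold change -0.51, SE 0.08, edgeR adjusted p 2.6e-04) was -0.04 with flowering-plant scaling and no longer called.

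Proteins at lower levels were among the larger relative changes. At5g03250 had 1.22, 1.88 and 1.34 CPM in salt and 4.69, 7.50 and 6.32 CPM in control, summed over 8 clusters of which only 1 passed the count filter. Its log2 fold change was -2.06 (edgeR adjusted p 1.3e-04, SE 0.27), or -1.58 with flowering-plant scaling. NPY5, named in Arabidopsis for its part in auxin-dependent organ formation, had 1.78, 2.01 and 2.76 CPM in salt and 5.34, 5.96 and 5.28 CPM in control. Both kept their groups apart, and NPY5 changed by -1.35 (SE 0.23, edgeR adjusted p 5.3e-04), or by -0.87 with flowering-plant scaling. At2g04740 had 3.69, 2.92 and 3.58 CPM in salt and 6.51, 5.67 and 5.92 CPM in control (log2 fold change -0.83, SE 0.18, edgeR adjusted p 0.0027), and it was not called with flowering-plant scaling (edgeR adjusted p 0.10).

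BT4, a BTB/TAZ protein of a group that binds calmodulin in Arabidopsis, was higher in salt. Its 3 clusters summed to 6.75, 7.87 and 6.31 CPM in salt, against 4.99, 3.72 and 5.36 CPM in control. The log2 fold change was 0.58 (edgeR adjusted p 0.021, SE 0.19), or 1.05 with flowering-plant scaling. The call was lost without salt 2, salt 3 or control 2, with edgeR adjusted p of 0.15, 0.061 and 0.085. No other protein of this type was called higher by edgeR with all-cluster scaling. DESeq2 also called At4g01160 and POB1 higher, both below edgeR's count filter. At3g56230 had 3.41, 4.34 and 2.93 CPM in salt and 3.23, 3.35 and 2.87 CPM in control, which overlap, and it was called higher with flowering-plant scaling (log2 fold change 0.66, edgeR adjusted p 0.029), a call kept there only without salt 1 or salt 3 when 1 library was left out. Clusters with BT names that the table files under another family were not summed in.

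At3g05675 and At4g08455 were not called as sums, but the shares of their clusters differed between the groups. With flowering-plant scaling both sums were called higher, each with a log2 fold change of 0.40, a call that At4g08455 kept only without salt 3 when 1 library was left out. Scaled over all clusters, the At3g05675 sum was called lower without salt 1 (edgeR adjusted p 0.018). The 12 clusters of At3g05675 summed to 35.8, 28.4 and 28.9 CPM in salt and 32.0, 33.9 and 32.4 CPM in control, which overlap. Among them, Cluster-71316.104473 was lower (log2 fold change -1.55, SE 0.35, edgeR adjusted p 0.010) and held 6.03% of the protein's CPM in salt, against 16.7% in control. With flowering-plant scaling (-1.08, edgeR adjusted p 0.038) the call was kept only without salt 3 when 1 library was left out. Cluster-71316.60952 of At4g08455 held 64.2% of that protein's CPM in salt, against 43.1% in control, and was called higher with flowering-plant scaling (0.98, edgeR adjusted p 0.0089) but not with all-cluster scaling (0.11), except without salt 3 (0.043). These examples were chosen after their values were seen.

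ARIA, whose loss makes Arabidopsis less sensitive to abscisic acid, was lower in salt. Its 9 clusters summed to 93.4, 107 and 101 CPM in salt, against 224, 230 and 223 CPM in control. Each salt library lay below every control library. The log2 fold change was -1.17 (edgeR adjusted p 7.0e-07, SE 0.06), and -0.69 with flowering-plant scaling (edgeR adjusted p 5.7e-05).

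The ARIA decrease lay in its main cluster and in less abundant ones of like length. Cluster-71316.167038 (2818 bases) had 70, 78.3 and 84.6 CPM in salt, against 189, 194 and 190 CPM in control (log2 fold change -1.30, SE 0.08, edgeR adjusted p 1.0e-04). Cluster-71316.160458 had 2.24, 3.39 and 2.22 CPM in salt and 8.87, 11.1 and 9.68 CPM in control (log2 fold change -1.91, SE 0.23, edgeR adjusted p 9.2e-04). Cluster-71316.177937 had 0, 0.391 and 0 CPM in salt and 3.34, 4.03 and 2.72 CPM in control, a fitted log2 fold change of -4.52 (edgeR adjusted p 0.0087, SE 0.98) that depends on the prior count. With flowering-plant scaling that call was lost without control 1 or control 2. In contrast, Cluster-71316.168844 (1283 bases), chosen here after its values were seen, had 9.65, 11.7 and 1.99 CPM in salt and 3.06, 1.78 and 3.11 CPM in control. Its salt libraries disagree among themselves, and it was not called (edgeR adjusted p 0.070) except without salt 3 (0.0072). With flowering-plant scaling it was higher (0.034), a call kept there only without salt 3 when 1 library was left out, and DESeq2 called it higher (adjusted p 0.0093).

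BPA1 binds ACD11, a lipid transfer protein whose loss sets off cell death in Arabidopsis. Its 4 clusters, whose deposited annotation lists RNA recognition motifs beside the BTB/POZ domain, summed to 155, 151 and 125 CPM in salt, against 112, 110 and 112 CPM in control. All salt libraries stood above all control libraries. The log2 fold change was 0.37 (edgeR adjusted p 0.0029, SE 0.08), and 0.84 with flowering-plant scaling (edgeR adjusted p 2.8e-05). Cluster-71316.152166 had 46.3, 42.2 and 37.8 CPM in salt and 28.2, 24.9 and 26.7 CPM in control (log2 fold change 0.66, SE 0.10, edgeR adjusted p 0.0022). Its share of BPA1 was 29.3% in salt and 23.8% in control. Together the ARIA and BPA1 clusters included 1 higher and 4 lower of 12 tested (8.33% and 33.3%), and 4 higher and 3 lower with flowering-plant scaling (33.3% and 25%). The shares of other flowering-plant clusters were 12.4% higher and 35.5% lower, or 21.8% and 20.3% with flowering-plant scaling. The UVR8 cluster was not tested. The higher count was also 4 without salt 3.

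The NPR proteins did not move together. NPR3 was higher and NPR1 and NPR5 were lower, and the type summed to 195, 188 and 182 CPM in salt and 177, 180 and 174 CPM in control. Of 15 clusters 13 were tested, with 3 higher and 4 lower (23.1% and 30.8%), or 4 higher and 3 lower with flowering-plant scaling (30.8% and 23.1%). Other flowering-plant clusters had 12.4% higher and 35.5% lower, or 21.8% and 20.3% with flowering-plant scaling. The higher count was 1 without salt 2, salt 3 or control 2.

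NPR1 is the coactivator through which salicylic acid switches on defence genes in Arabidopsis. Its 6 clusters summed to 14.3, 15.3 and 12 CPM in salt, against 28.0, 27.6 and 26.7 CPM in control. The groups did not overlap and the difference was 1.98-fold (log2 fold change -0.98, SE 0.11, edgeR adjusted p 3.7e-05), or -0.50 with flowering-plant scaling (edgeR adjusted p 0.0026). Cluster-71316.205007 had 1.09, 0.833 and 1.18 CPM in salt and 2.87, 3.32 and 3.20 CPM in control (log2 fold change -1.58, SE 0.29, edgeR adjusted p 0.0041), and with flowering-plant scaling its call was lost without control 2 or control 3. Cluster-71316.215828 had 3.87, 4.43 and 5.12 CPM in salt and 6.85, 9.95 and 10.4 CPM in control, and its decrease (log2 fold change -1.02, SE 0.22, edgeR adjusted p 0.0081) was not called with flowering-plant scaling (0.094).

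Some NPR1 clusters differed widely between libraries of 1 group. Cluster-71316.126524 had 2.70, 0 and 0 CPM in salt and 5.54, 1.12 and 0 CPM in control, and Cluster-71316.125672 had 2.50, 0 and 0 CPM in salt and 6.23, 1.01 and 0 CPM in control. Both were thus filled in the same 3 libraries and listed at 0 in the other 3. Cluster-71316.224309, of 2665 bases against 2667 for the first of them, had 4.17, 9.94 and 5.73 CPM in salt and 6.18, 12 and 12.8 CPM in control, with its lowest value of each group in the library where the other 2 were highest. These clusters were chosen after their values were seen, and none of the 3 was called.

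NPR3, an adaptor that binds salicylic acid and acts against NPR1 in Arabidopsis, was the most abundant NPR protein. Its 6 clusters summed to 178, 171 and 168 CPM in salt, against 144, 147 and 144 CPM in control. The groups did not overlap, and the small increase (log2 fold change 0.25, SE 0.05, edgeR adjusted p 0.0021) was 0.72 with flowering-plant scaling (edgeR adjusted p 2.0e-06).

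The NPR3 total hid opposite changes of its clusters. Cluster-71316.174332 (3042 bases) had 102, 92.8 and 107 CPM in salt, against 61.5, 61.5 and 54.9 CPM in control (log2 fold change 0.76, SE 0.08, edgeR adjusted p 6.4e-04), and its share of NPR3 was 58.5% in salt and 40.8% in control. Cluster-71316.180165 (2133 bases) had 1.81, 2.41 and 0.0236 CPM in salt, against 11.1, 13.3 and 14.2 CPM in control (log2 fold change -3.17, SE 0.83, edgeR adjusted p 0.017), a call lost without control 2 (0.059) or control 3 (0.063), and with flowering-plant scaling also without salt 1 or control 1. DESeq2 did not call it (adjusted p 0.060). Cluster-71316.186651, of 2134 bases, went the other way, with 10.5, 4.65 and 3.33 CPM in salt and 0, 0.398 and 1.40 CPM in control. Its log2 fold change of 3.36 (edgeR adjusted p 0.034, SE 1.05) was not called without salt 1, salt 2, salt 3 or control 2, with edgeR adjusted p of 0.098, 0.073, 0.053 and 0.11, nor with flowering-plant scaling without salt 1, salt 2 or control 2. The last pair differ by 1 base in length. The closest protein in the wider database came from Helianthus annuus for Cluster-71316.180165 and from Glycine max for Cluster-71316.186651. How reads were divided between them was not tested.

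Cluster-71316.194078 of NPR3 had 27.1, 32.3 and 35.0 CPM in salt and 24.9, 23.2 and 23.8 CPM in control. Its log2 fold change of 0.39 (edgeR adjusted p 0.024, SE 0.11) was lost with all-cluster scaling when any 1 library but salt 1 was left out, with edgeR adjusted p up to 0.19, without salt 3. With flowering-plant scaling it was 0.87 (edgeR adjusted p 0.0022) and was called without each library in turn, and DESeq2 called it too (adjusted p 8.9e-06).

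NPR4, the close relative of NPR3, had 1.19, 0.830 and 1.24 CPM in salt and 0.728, 0.635 and 0.545 CPM in control. The groups did not overlap, but the log2 fold change of 0.79 (edgeR adjusted p 0.086, SE 0.38) was called only with flowering-plant scaling (0.013), and there not without salt 1, salt 3, control 2 or control 3. NPR5, known as BLADE-ON-PETIOLE2 in Arabidopsis, where it shapes leaf bases and flowers, had 0.923, 0.909 and 0.894 CPM in salt, against 3.99, 4.34 and 2.93 CPM in control. The salt libraries held 13, 14 and 11 counts, against 68, 88 and 50 in control. At such counts the near-equal salt values are closer than counting error would give, so they do not show tight replication. The difference was 4.13-fold (log2 fold change -2.04, SE 0.28, edgeR adjusted p 1.7e-04), or -1.56 on the log2 scale with flowering-plant scaling. NPR5 kept its call without each library under both scalings.

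**Figure D4:**
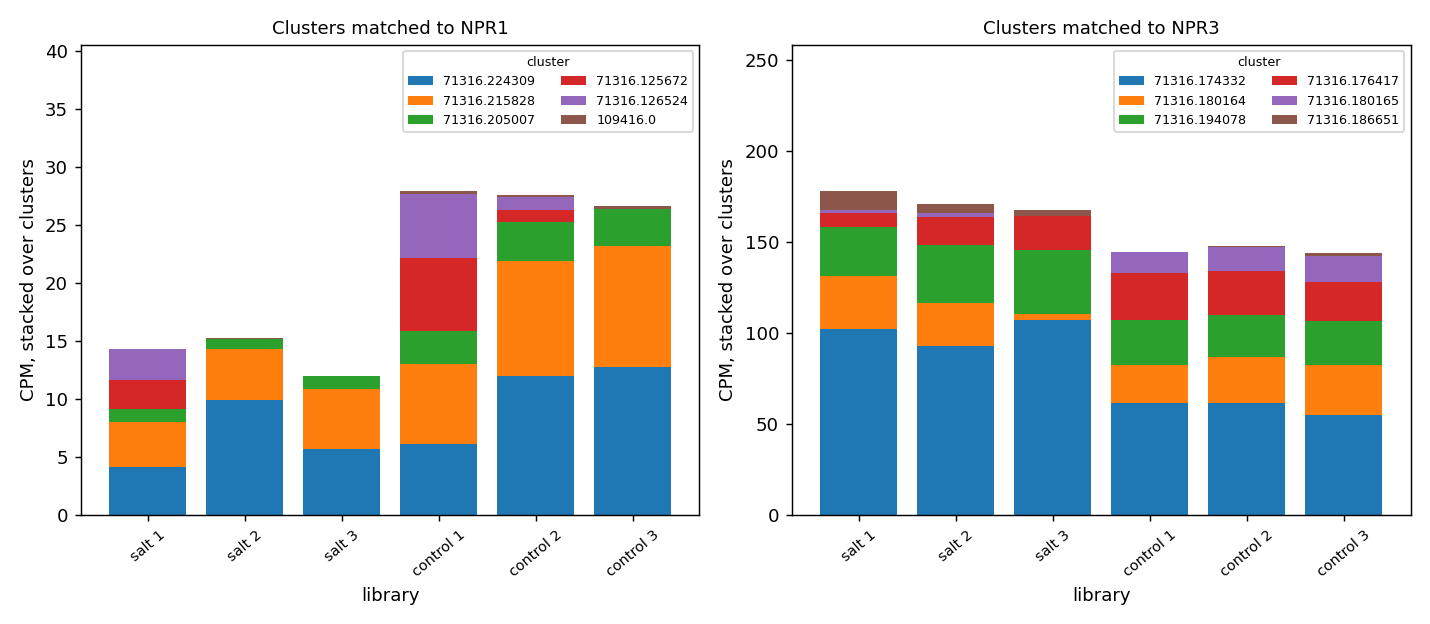
CPM of the 6 NPR1 clusters (left panel) and the 6 NPR3 clusters (right panel) stacked for each library (x axis, salt left of control). NPR1 bars reach 12 to 15.3 CPM in salt and 26.7 to 28.0 CPM in control with a changing make-up, and in the NPR3 bars Cluster-71316.174332 takes 58.5% in salt and 40.8% in control.

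The BPM adaptors, which in Arabidopsis bring transcription factors to cullin-3, overlapped between the groups or lay apart depending on the scaling. Their 5 clusters summed to 45.7, 42.2 and 40.1 CPM in salt and 44.2, 45.8 and 40.2 CPM in control, and with flowering-plant scaling to 51.5, 51.4 and 47.9 CPM in salt and 37.3, 37.5 and 35.4 CPM in control. BPM3 had 27.8, 25.7 and 23.5 CPM in salt and 24.2, 23.0 and 20.6 CPM in control, and its log2 fold change of 0.18 (edgeR adjusted p 0.12, SE 0.10) was not called, while it was higher with flowering-plant scaling (0.66, edgeR adjusted p 1.8e-04) and by DESeq2 (0.34, adjusted p 0.013). Its main cluster, Cluster-71316.246876, had 26.9, 20.6 and 22.1 CPM in salt and 22.8, 21.2 and 19.6 CPM in control (log2 fold change 0.13, SE 0.13, edgeR adjusted p 0.42), and was called higher with flowering-plant scaling (0.60, edgeR adjusted p 0.0035) and by DESeq2 (0.40, adjusted p 0.0028). Cluster-71316.246879 had 0.825, 0.828 and 1.36 CPM in salt and 1.43, 1.79 and 1.07 CPM in control (log2 fold change -0.47, SE 0.40, edgeR adjusted p 0.36).

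BPM4 was slightly lower as a sum, with 18.0, 16.5 and 16.6 CPM in salt, against 19.9, 22.8 and 19.5 CPM in control. The groups did not overlap, yet the log2 fold change of -0.29 (edgeR adjusted p 0.027, SE 0.10) was lost without control 1 (0.053) or control 2 (0.11) and turned to 0.19, uncalled, with flowering-plant scaling. Its 2 clusters differed in direction. Cluster-71316.99265 had 15.7, 15 and 13.8 CPM in salt and 19.1, 21.6 and 18.7 CPM in control (log2 fold change -0.42, SE 0.10, edgeR adjusted p 0.015), which was lost without control 2 (0.060) and became 0.06 with flowering-plant scaling. Cluster-71316.99264 had 2.27, 1.47 and 2.79 CPM in salt and 0.836, 1.17 and 0.847 CPM in control (log2 fold change 1.19, SE 0.37, edgeR adjusted p 0.034). That call remained only without salt 2 among the runs that left out 1 library, where edgeR adjusted p otherwise lay between 0.051 and 0.10. With flowering-plant scaling it was 1.67 (edgeR adjusted p 0.0084) and was called without each library in turn.

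The 39 clusters that did not pass the filter held a median of 22 counts over all 6 libraries and at most 92.1. In 5 of them more than 80% of the counts came from 1 library, and 2 clusters had 0 counts everywhere. The most abundant, Cluster-71316.201658 of At3g05675, had 0, 0 and 0.419 CPM in salt and 0.353, 2.74 and 1.48 CPM in control. Cluster-71316.246877 of BPM3 had all of its 66.7 counts in 1 library. The 8 untested proteins included POB1, with 0.406, 0.768 and 0.794 CPM in salt and 0, 0.0976 and 0.117 CPM in control, and UVR8, with 0, 0.0649 and 0 CPM in salt and 0.117, 0.246 and 0.176 CPM in control. They were not tested by edgeR. DESeq2, run without that filter, tested 32 of the 39 clusters and called 2 higher and 0 lower, and of 6 of the 8 proteins it called POB1 (log2 fold change 3.37, adjusted p 0.007) and At4g01160 (3.86, adjusted p 0.01) higher.

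Known partners of these proteins were looked up by name among the flowering-plant clusters. Beside each count, other flowering-plant clusters had 12.4% higher and 35.5% lower, or 21.8% and 20.3% with flowering-plant scaling. TGA factors, the DNA-binding partners of NPR1, had 28 clusters, of which 18 were tested and 15 were lower (83.3%). None was higher by edgeR, also at an unadjusted p under 0.05, or by DESeq2 or limma. Their median log2 fold change was -1.45, or -0.97 with flowering-plant scaling, where 9 were lower (50%). Cluster-71316.164817, matched to HBP-1b(c38) and the most abundant of them, had 9.77, 10.7 and 12.6 CPM in salt and 19.5, 24.0 and 19.2 CPM in control (log2 fold change -0.92, edgeR adjusted p 0.0024). WRKY70 and WRKY54, which act in the same salicylic acid pathway, had 2 higher and 12 lower of 22 tested (9.09% and 54.5%), or 3 higher and 5 lower of 23 with flowering-plant scaling (13% and 21.7%). The higher count was 1 without any 1 salt library or control 3.

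Transcription factors that BPM proteins bring to breakdown in Arabidopsis had 2 higher and 13 lower of 24 tested clusters (8.33% and 54.2%), or 3 higher and 7 lower with flowering-plant scaling (12.5% and 29.2%), and the lower count was 9 to 13 with 1 library left out. DREB2A, an activator of drought and heat genes, was lower in all 4 tested clusters under both scalings. Its most abundant cluster, Cluster-71316.173520, had 12.1, 12.3 and 14.1 CPM in salt, against 39.5, 36.8 and 34.7 CPM in control (log2 fold change -1.53, edgeR adjusted p 1.3e-04). RAP2-4 had 6 lower of 14 tested, 0 higher at either threshold, and 3 lower with flowering-plant scaling. MYC2, MYC3 and MYC4, the activators of jasmonate responses, split into 2 higher and 2 lower of 4, or 3 higher and 0 lower by edgeR with flowering-plant scaling, where 0 were lower also at an unadjusted p under 0.05. DESeq2 called 0 of them lower and limma 2, and edgeR called 1 lower without any 1 control library. Cluster-71316.160657, matched to MYC4, had 99.0, 93.7 and 85.2 CPM in salt and 57.2, 66.2 and 56.2 CPM in control (log2 fold change 0.63, edgeR adjusted p 0.0020), while a further MYC4 match, Cluster-71316.176979, had 45.2, 47.1 and 44.9 CPM in salt and 58.1, 59.9 and 57.2 CPM in control (log2 fold change -0.35, edgeR adjusted p 0.0035, and 0.12 with flowering-plant scaling, not called). The 1 tested ATHB-6 cluster was lower, a call lost with flowering-plant scaling and without any 1 library but salt 2, the 1 tested WRI1 cluster was not called, and no cluster was named MYB56 or MYB106.

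Although none of the BTB/POZ clusters was named ETO1 or SINA, the factors that act downstream of those proteins were counted. Clusters outside the TRAF family were not searched for either name. EIN3 and EIL factors of ethylene signalling had 0 higher and 5 lower of 7 tested (71.4% lower), with 0 higher at an unadjusted p under 0.05 and by DESeq2 and limma, and 1 higher and 3 lower with flowering-plant scaling (14.3% and 42.9%). The lower count was 3 without control 1. Cluster-71316.180821, matched to EIN3, had 115, 107 and 112 CPM in salt and 192, 205 and 178 CPM in control (log2 fold change -0.78, edgeR adjusted p 3.3e-04). Substrates of SINA-type ligases in Arabidopsis (NAC021/NAC022, BZR1, BES1 and LHY) were listed by name. The BZR1 and BES1 entry, with 15 tested clusters, also took in BES1/BZR1 homolog proteins, among them its most abundant clusters. The list had 1 higher and 12 lower of 23 tested (4.35% and 52.2%), or 2 higher and 5 lower with flowering-plant scaling (8.70% and 21.7%). The lower count was 8 without salt 2, 5 without control 2 and 6 without control 3. Medians over these lists were -1.04 for NPR partners, -0.78 for BPM substrates, -0.82 for EIN3 and EIL and -1.04 for SINA substrates, where all tested regulators had -0.36 and other flowering-plant clusters -0.62. With flowering-plant scaling these medians were -0.51, -0.3, -0.34 and -0.58 in the same order. All tested regulators then had 0.16 and other flowering-plant clusters -0.13.

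The authors' deposited table called 20 of the 108 BTB/POZ clusters DOWN and 3 UP in salt, 18.5% and 2.78%, where it called 10.2% and 13.5% of all regulator clusters. All 20 DOWN clusters were also lower by edgeR, 17 of them with flowering-plant scaling too, and 0 were called the opposite way. Of the 3 UP clusters, in the authors' deposited table, Cluster-71316.186651 of NPR3 was also higher by edgeR, Cluster-71316.168844 of ARIA was not called, and Cluster-71316.311210 of POB1 was not tested. The authors' deposited table gives a log2 ratio of -8.31 for Cluster-71316.168131 of At2g30600, -1.23 for Cluster-71316.167038 of ARIA and 0.84 for Cluster-71316.174332 of NPR3, the last without an UP call.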

How the data were processed

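Total RNA from roots went into Illumina TruSeq libraries, per the labels' protocols, with 3 salt and 3 control libraries. TopHat2 2.0.12 and Bowtie2 2.0.6 stand in the submitters' processing notes, which do not say for which step. Assembly, counting and annotation tools are unstated: not given in the sources used here. The deposited regulator table holds expected counts per cluster (49.3% are not whole numbers), FPKM, length and annotation, and the deposited FPKM table covers 469059 clusters. The authors' log2 ratios and q-values come from the deposited regulator table, and their tool is not named there.

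Counts of 10744 unique clusters were rounded and tested with edgeR 4.0.16 (R 4.3.3; glmQLFit, glmQLFTest, filterByExpr at defaults), salt minus control, with p-values adjusted by Benjamini-Hochberg. Library size was depth times a TMM factor from the FPKM of all clusters. Depth was the slope of count over FPKM on length, over clusters with at least 200 counts and 1000 bases. The alternative scaling did not use depth. It took the summed counts of flowering-plant-matched regulators times a TMM factor from those counts, brought to the same geometric mean over libraries. CPM uses the first scaling unless stated, and its error bars are SDs over libraries. The SE of a log2 fold change is the one implied by the F statistic. DESeq2 1.42.0 and limma 3.58.1 on log2(FPKM + 1) were alternatives. Protein sums, added after the data were seen, join clusters of 1 Swiss-Prot entry within the family. No 2 libraries held identical values, and replicate libraries differed beyond counting noise (chi-square per degree of freedom 5.64 to 9.87).

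Replicate numbers are not said to pair libraries, and deviations of same-numbered libraries correlated at 0.028, 0.037 and 0.002, so no pairing was used. Named clusters were, per type, the most abundant tested, the largest called rise and fall, the 3 smallest p-values each way (all where at most 5 were tested), and the most abundant untested cluster. The clusters, lists and tests were chosen with earlier results of these data known. Lists were described by counts, with no test of a list. Swiss-Prot names do not establish orthology. Near-identical clusters can share reads.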

Additional observations from a re-analysis of the deposited data

How the results depend on the processing

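Counts over BTB/POZ clusters moved mainly with the library scaling. Higher calls, 5 by edgeR, became 12 with DESeq2 size factors, 8 with column sums, 15 with flowering-plant scaling, 15 with DESeq2, 2 with the replicate block (replicate number as a term; 20 lower there) and 2 with a 2-fold minimum. Leaving out each library gave 2 to 6 higher and 18 to 30 lower, and with flowering-plant scaling, a check added after seeing the data, 9 to 15 higher and 12 to 18 lower. Protein sums gave 5 higher with DESeq2 size factors, 8 with flowering-plant scaling, 5 without a count filter, 6 with DESeq2 and 0 with a 2-fold minimum, where 5 were lower, and without each library 2 to 5 higher and 9 to 12 lower. With flowering-plant scaling and 1 library left out, the protein sums gave 6 to 9 higher and 7 lower. Over all regulators, lower calls were 874 with flowering-plant scaling and higher calls 2342 with DESeq2. Without each library they were 1074 to 1368 higher and 1108 to 1668 lower, or 1560 to 1980 higher and 568 to 905 lower with flowering-plant scaling. The other alternatives (no composition factor, limma with either pseudocount, no count filter for clusters, a minimum of 30 counts) stayed within 1.5 times of each cluster count. Of 20 named tested clusters, 10 kept direction and call in every setting, 7 changed a call, and 3 changed sign in some setting. Those 3 were BPM clusters: Cluster-71316.246876 came to -0.0029 without salt 1 (up to 0.70 over all runs with a library left out), Cluster-71316.246879 to 0.02 with flowering-plant scaling and -0.79 to 0.19 over all runs with a library left out, and Cluster-71316.99265 to 0.06 and -0.51 to 0.12. The 1-library runs keep fewer samples, and the cause of the other changes was not tested. Depth limits the 39 untested clusters, and counting error alone understates the replicate spread.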

Other observations

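There were 50 TRAF clusters without a flowering-plant match. Of 30 matched to other organisms 4 could be tested, with 2 higher and 2 lower (3 higher and 2 lower of 5 with flowering-plant scaling), and of 20 without a match 5 could be tested, with 4 higher under both scalings. The clusters without a match summed to 11.6 to 19.2 CPM in salt and 3.40 to 4.22 CPM in control. Both lower ones were named after germ cell-less protein-like 1, and their closest protein in the wider database came from grape. Of these, Cluster-71316.136774 had 10.5, 11.1 and 9.28 CPM in salt and 21.3, 20.2 and 21 CPM in control (log2 fold change -1.02, SE 0.10, edgeR adjusted p 5.6e-04), and it was lower with both scalings.

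Cluster-71316.323801, matched to an alkB homolog and, in the wider database, to the moss Physcomitrella patens, had 1.63, 1.36 and 1.29 CPM in salt and 0 in each control library. Speckle-type POZ clusters, named after an animal MATH and BTB/POZ adaptor, numbered 12 and were below edgeR's count filter, except Cluster-71556.1 with flowering-plant scaling, where it was higher (log2 fold change 2.80, edgeR adjusted p 0.046). DESeq2 tested 11 of the 12 and called 3 higher and 0 lower. The closest proteins of these clusters in the wider database came from the oomycetes Aphanomyces and Phytophthora or from wheat. That of Cluster-71556.1 came from Phytophthora parasitica.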
